A study of Mus musculus with 6 samples.

Results

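The tripartite motif (TRIM) genes were followed across the 3 genotypes of a macrophage RNA-seq experiment. The members were selected on their gene symbol, Trim followed by digits and optional letters, and on a summed count of at least 60 over the 6 libraries. Of 23337 gene symbols in the count table, 65 had such a symbol and 44 of these reached the sum. Just inside the threshold was Trim9 with 60 counts, and just outside it was Trim7 with 59. Of the 21 symbols below it, Trim31, Trim40, Trim42 and Trim71 had no count in any library, and the other 17 had between 1 and 59. The cells were bone marrow-derived macrophages of strain C57BL/6, grown with the growth factor M-CSF to day 7 of culture and then treated with lipopolysaccharide (LPS), a bacterial cell wall component, at 100 ng/ml for 8 h. Wild-type cells (WT), cells without Ch25h (Ch25hKO) and cells without both liver X receptors (LXRdKO) gave 2 libraries each. Ch25h encodes cholesterol 25-hydroxylase, which makes 25-hydroxycholesterol, and the liver X receptors are oxysterol-activated nuclear receptors. Libraries from unstimulated cells were not analysed here, so no value below is a response to LPS.

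TRIM proteins usually carry a RING domain, B-boxes and a coiled coil, followed by a C-terminal domain that contacts the substrate. The RING domain makes most of them E3 ubiquitin ligases, and several are known to build or cut short the signal from Toll-like and RIG-I-like receptors in macrophages. Type I interferon is known to raise a subset of the family, in large part through the interferon-stimulated response element, a short promoter motif. Others work in chromatin, at microtubules, in organelle membranes or in development.

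Promoter stretches are shown for members of the interferon-inducible subset because these members moved in 1 direction in Ch25hKO, as given further on. Promoters were taken from RefSeq on GRCm38.p6, 250 bases before to 50 bases after each annotated start, and 33 of the 44 members had an entry. The response element was searched as GAAA, any 2 bases and GAAA again on both strands, so that it reads TTTC, any 2 bases and TTTC on the opposite strand, and overlapping matches were counted. At least 1 match lay in the promoters of 4.03% of all tested genes with an entry, and 3.44% of all 32851 promoters held one. Of the 12 members on the interferon-inducible list that had an entry, 7 held a match (58.3%), against 1 of 21 other members (4.76%), which was Trim2. The 8 matching stretches of the 7 interferon-inducible members are printed 5′ to 3′ on the gene's own strand, with the matched bases in capitals:
Trim30a, first annotated start, chr7:104465200-104465249 (minus strand): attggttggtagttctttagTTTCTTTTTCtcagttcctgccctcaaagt
Trim30a, second annotated start, chr7:104446114-104446143 (minus strand): cactggttggttgtttttagTTTCTTTTTC
Trim30d, chr7:104507861-104507910 (minus strand): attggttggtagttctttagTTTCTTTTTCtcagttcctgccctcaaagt
Trim12a, chr7:104315476-104315505 (minus strand): attggtctgtagagttgtggTTTCTGTTTC
Trim12c, chr7:104353350-104353398 (minus strand): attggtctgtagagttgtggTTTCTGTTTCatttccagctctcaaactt
Trim21, chr7:102565454-102565483 (minus strand): cctgcctctgagagGAAACTGAAAGTGAAA
Trim34a, chr7:104244447-104244476 (plus strand): ctgtatccgctggtttggagTTTCAGTTTC
Trim26, chr17:36836966-36837021 (plus strand): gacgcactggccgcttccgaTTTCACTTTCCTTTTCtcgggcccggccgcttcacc
The first stretch of Trim30a and that of Trim30d were identical at 50 of 50 bases. The stretch at the second start of Trim30a matched that of Trim30d at 19 of 30 bases compared, and its first capital lay 2 bases after that start. The stretches of Trim12a and Trim12c were identical at 30 of 30 bases compared. The first capital lay 36 bases before the first annotated start of Trim30a and 41 before the start of Trim30d, 10 bases after the start of Trim12a and 29 before that of Trim12c. In Trim21 and Trim26 the capitals cover 2 overlapping matches, which began 13 bases after the start and 160 bases before it. The match of Trim34a began 10 bases after its start. No match was found in the windows of Trim25, Trim30b, Trim34b, Trim56 and Trim69, and Trim14 was not among the genes of the promoter table. A match describes letters in this window and was not tested as a binding site.

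Total counts ranged from 41650513 to 45872964 per library, and members held between 142434 and 186136 counts of a library. Each knockout was low in the genes its label names: Ch25h had 3120 and 3076 counts in WT against 42 and 57 in Ch25hKO, Nr1h3 had 710 and 756 in WT against 42 and 41 in LXRdKO, and Nr1h2 had 1292 and 1401 against 35 and 35. Summed macrophage markers stood at 18621 and 17159 CPM in WT, 17205 and 17855 CPM in Ch25hKO, and 20651 and 20478 CPM in LXRdKO. CPM is the usual scaling of counts to library size, here after TMM. Of the 9 markers, 7 were called higher and 0 lower in LXRdKO than in WT (16.4% and 15.5% of all tested genes). In Ch25hKO, 2 were higher and 2 lower than in WT (19.8% and 19.5% of all tested genes). Whether the 2 libraries of a genotype are separate animals or cultures is not stated in the labels. The p-values reflect how far libraries of the same genotype differ from each other, with the spread shared in large part across genes. That spread may be technical. Changes are on the log2 scale with their standard error (n = 2 libraries in each group). Adjusted p-values are those of the quasi-likelihood test in edgeR, corrected by Benjamini-Hochberg over the 12923 genes tested and called under 0.05.

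All 44 members passed edgeR's filter on low counts. Together they summed to 4189 and 4111 CPM in WT, 3285 and 3344 CPM in Ch25hKO, and 3820 and 3904 CPM in LXRdKO. Trim30a and Trim25 alone made up 59.0% and 59.1% of that sum in the WT libraries, 54.9% and 55.3% of it in Ch25hKO, and 55.4% and 55.8% of it in LXRdKO. At least 10000 counts over the 6 libraries were reached by 12 members, and 15 had under 1000, so the precision of the values below differs widely between members.

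Divided by the length of its merged exons, Trim30a stood highest, at 321 and 322 CPM per kb in WT, 247 and 252 CPM per kb in Ch25hKO and 307 and 311 CPM per kb in LXRdKO. This gene is induced by Toll-like receptor signals and is known to restrain them by acting on the TAB2 and TAB3 adaptors. Next was Trim25, the ligase that ubiquitinates the RNA sensor RIG-I, at 199.99 and 192 CPM per kb in WT, 137 and 141 CPM per kb in Ch25hKO and 149 and 157 CPM per kb in LXRdKO. Trim30d, a paralog of Trim30a, followed at 103 and 107 CPM per kb in WT, 87.6 and 89.9 CPM per kb in Ch25hKO and 104.4 and 108 CPM per kb in LXRdKO. Trim21, a cytosolic receptor for antibody-coated virus, stood at 82.9 and 73.3 CPM per kb in WT, 60.2 and 62.0 CPM per kb in Ch25hKO and 76.8 and 79.1 CPM per kb in LXRdKO. Trim34a, whose cellular role is less well known, stood at 42.4 and 46.3 CPM per kb in WT, 35.1 and 36.2 CPM per kb in Ch25hKO and 47.6 and 46.8 CPM per kb in LXRdKO. The WT libraries of these 5 genes did not overlap in level per kb, and the order held in each genotype. All 5 are on the interferon-inducible list. At the other end of the order, Trim2 and Trim9, both best known from neurons, had WT means of 0.0213 and 0.0120 CPM per kb.

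**Figure D1:**
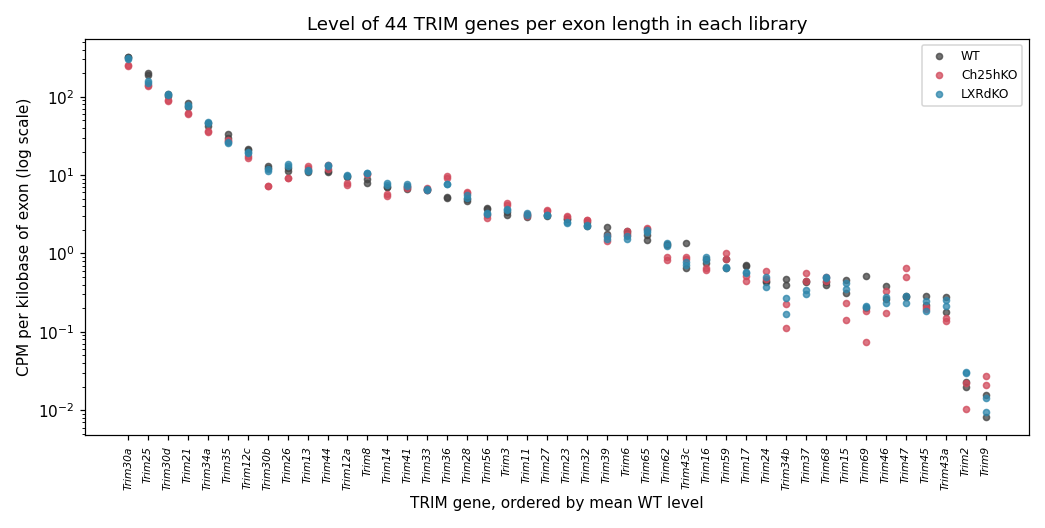
CPM per kilobase of merged exon (log scale) for the 44 members in each library, ordered along the x axis by the mean WT level, with 1 point per library and genotypes in colour. Levels run from 322 CPM per kb for Trim30a to 0.012 for Trim9 (WT means), and the red points (Ch25hKO) of the 5 highest genes lie below the WT points.

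In Ch25hKO, more members were called lower than higher. Of the 44, 18 were lower than in WT (40.9%, against 19.5% of all tested genes called lower) and 8 were higher (18.2%, against 19.8%). The median change over the members was -0.23, against 0.01 over all genes tested. The sizes were modest: of the called members, 1 was over 2-fold higher and 3 were over 2-fold lower. Called members had a median size of change of 0.35, against 0.40 for all called genes. Without Ch25hKO replicate 2, the count of members called higher dropped from 8 to 5. In bulk RNA, fewer cells of a type and less RNA per cell cannot be told apart.

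In LXRdKO, members were called against WT at shares near those of all tested genes. Of the 44, 5 were called higher (11.4%, against 16.4% of all tested genes) and 5 lower (11.4%, against 15.5%), with a median change of -0.00 against 0.00 over all genes. The higher count was 3 without LXRdKO replicate 2, and the lower count was 2 without either LXRdKO library. The WT libraries are the same in both comparisons, so the calls of the 2 knockouts are not independent, and the difference between the knockouts was tested directly. In that direct test, 12 members were lower in Ch25hKO than in LXRdKO (27.3%, against 19.3% of all tested genes) and 7 were higher (15.9%, against 18.6%). The higher count was 4 without either Ch25hKO library and 3 without either LXRdKO library.

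**Figure D2:**
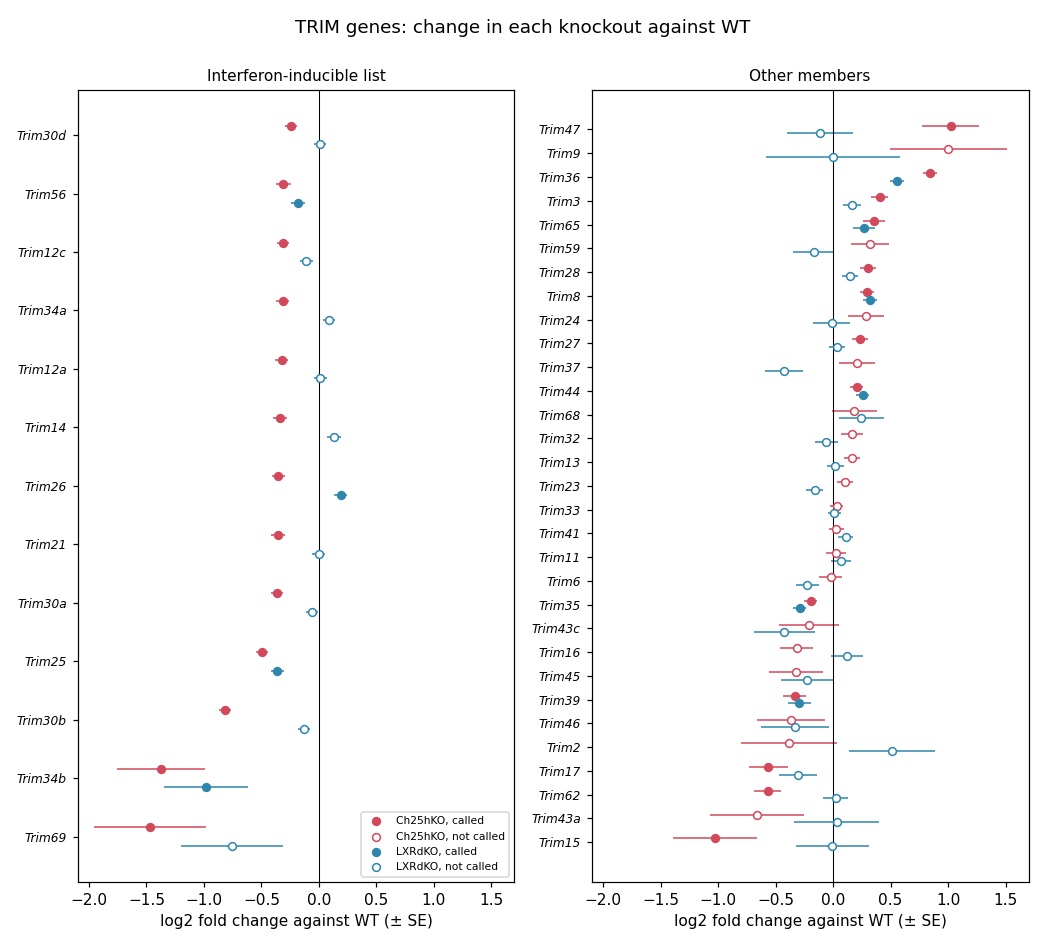
log2 fold change against WT (x axis, bars are ± SE, n = 2 libraries per group) for each of the 44 members, in Ch25hKO (red) and LXRdKO (blue), with filled points for called changes. In the left panel, the 13 interferon-inducible members are all filled and left of 0 in Ch25hKO, while 9 of the 13 are open in LXRdKO; in the right panel, the other 31 members spread to both sides.

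The interferon-inducible list has 16 genes, of which Trim5 and Trim30c had no row and Trim38 had 10 counts in all, so that 13 are members. In Ch25hKO, 13 of 13 were lower than in WT, with changes from -1.47 to -0.25 and a median of -0.35 (19.5% of all tested genes were called lower). In LXRdKO, 3 of the 13 were lower (Trim25, Trim56 and Trim34b), 1 was higher (Trim26) and 9 passed in neither direction, with a median of -0.06. That is 23.1% lower and 7.69% higher, against 15.5% and 16.4% of all tested genes. Without either LXRdKO library the 3 became 1, and without LXRdKO replicate 2 the 1 became 0. In the direct comparison, 9 of the 13 were lower in Ch25hKO than in LXRdKO and none was higher, with a median of -0.35 (19.3% of all tested genes were called lower). The list was drawn up with earlier results of these data known, and its counts are a description. Of the other 31 members, 8 were higher in Ch25hKO than in WT, 5 were lower and 18 passed in neither direction, with a median of 0.10. Their 25.8% higher and 16.1% lower lie near the 19.8% and 19.5% of all tested genes.

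Markers of other cell types differed between the genotypes too. Summed dendritic cell markers (9 of 9 in the table, none at 0 throughout) were at 35.5 and 36.1 CPM in WT, 21.0 and 21.5 CPM in Ch25hKO, and 27.9 and 29.4 CPM in LXRdKO. Of the 8 tested, 3 were called lower in Ch25hKO than in WT (37.5%, against 19.5% of all tested genes, median -0.52). In LXRdKO, 2 were called lower than in WT (25%, against 15.5% of all tested genes, median -0.49). None was called higher in either knockout. Summed stromal markers (8 of 8) were at 42.2 and 38.3 CPM in WT, 57.7 and 57.6 CPM in Ch25hKO, and 47.1 and 47.3 CPM in LXRdKO. Of these 8, 7 were called higher and none lower in Ch25hKO than in WT, with a median change of 1.30. That is 87.5% higher, against 19.8% of all tested genes. In LXRdKO, 3 were called higher than in WT and none lower (37.5% higher, against 16.4% of all tested genes, median 0.21). Between the knockouts, 5 were higher and 1 lower in Ch25hKO (62.5% and 12.5%, against 18.6% and 19.3% of all tested genes). Neutrophil markers (8 of 9 in the table) summed to 40.6 and 39.6 CPM in WT, 52.4 and 55.2 CPM in Ch25hKO, and 19.5 and 19.97 CPM in LXRdKO. Erythroid and megakaryocyte markers (9 of 9 in the table, 3 of them at 0 in each library) summed to 24.9 and 26.6 CPM in WT, 42.9 and 43.4 CPM in Ch25hKO, and 30.8 and 34.8 CPM in LXRdKO. B cell markers summed to 0.452 to 1.08 CPM, T and NK cell markers to 4.03 to 5.36 CPM, and mast cell and basophil markers to 64.7 and 70.4 CPM in WT and at most 55.4 CPM in each knockout library. The neutrophil sum was mostly S100a8, and the erythroid and megakaryocyte sum mostly Pf4. In Ch25hKO, S100a8 was the only 1 of 5 tested neutrophil markers called against WT (0.47, median 0.05). There, of 4 tested erythroid and megakaryocyte markers, Pf4 was called higher (0.84) and Gp9 lower (-2.35, 56 counts in all). The other 2 had no call, and the median of the 4 was -0.11. In LXRdKO, 4 of the 5 tested neutrophil markers were called lower than in WT and none higher, with a median of -1.04. That is 80% lower, against 15.5% of all tested genes. Pf4 was called higher there, as the only call among the 4 erythroid and megakaryocyte markers (25%, against 16.4% of all tested genes). Whether the marker sums come from other cells or from the macrophages themselves was not tested. Any part of other cells in the TRIM changes was not tested either.

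**Figure D3:**
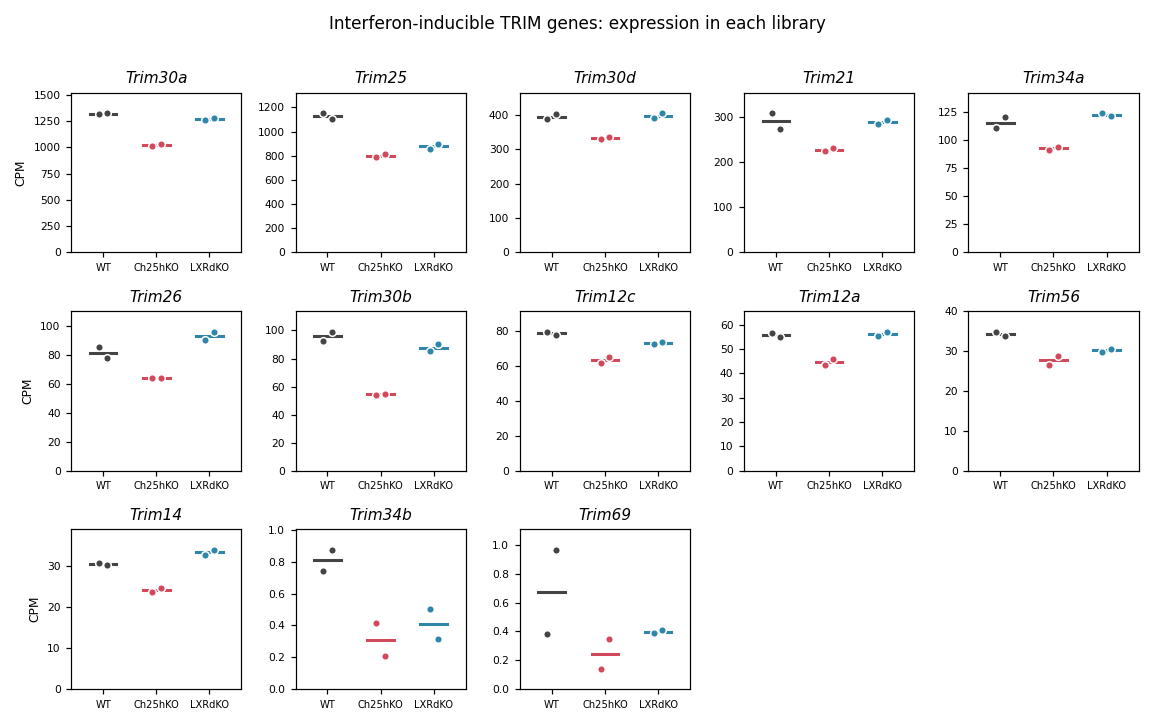
CPM (y axis, linear from 0) of the 13 members on the interferon-inducible list in each library, with 1 point per library and a bar at the group mean. For each gene, the Ch25hKO bar lies below the WT bar, while the LXRdKO bar lies above the WT bar in some genes and below it in others.

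Among the regulators of RNA and Toll-like receptor signalling, Trim25 (ENSMUSG00000000275.16, chromosome 11, 88999376 to 89020293, GRCm38) had 1151 and 1104 CPM in WT, 789 and 811 CPM in Ch25hKO, and 855 and 901 CPM in LXRdKO. Both knockouts lay below WT in every library. It fell by 0.49 ± 0.06 in Ch25hKO (adjusted p = 1.67e-06, 1.41-fold lower) and by 0.36 ± 0.06 in LXRdKO (adjusted p = 7.54e-05). Between the knockouts, the difference of -0.13 ± 0.06 did not pass (adjusted p = 0.0670). It did pass without WT replicate 1 (-0.13, adjusted p = 0.0196) and without WT replicate 2 (-0.14, adjusted p = 0.0186). The difference also passed with DESeq2 (-0.14, adjusted p = 0.0368) and with only the libraries compared (-0.13, adjusted p = 0.0149). So did it with the crossed replicate block given further on (-0.13, adjusted p = 0.0122). Trim25 was the only one of the 5 highest members that was called lower in LXRdKO. Trim56, a ligase reported to act in the STING pathway, had 34.9 and 33.8 CPM in WT, 26.6 and 28.8 CPM in Ch25hKO, and 29.8 and 30.6 CPM in LXRdKO. It fell by 0.31 ± 0.06 in Ch25hKO (adjusted p = 0.00069) and by 0.18 ± 0.06 in LXRdKO (adjusted p = 0.0299). The second call was lost without WT replicate 1 (-0.16, adjusted p = 0.0743), without LXRdKO replicate 1 (-0.16, adjusted p = 0.175) and without LXRdKO replicate 2 (-0.20, adjusted p = 0.0959).

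Trim14 lacks a RING domain and serves as an adaptor of the mitochondrial antiviral protein MAVS. It had 30.8 and 30.3 CPM in WT, 23.8 and 24.6 CPM in Ch25hKO, and 32.8 and 34.0 CPM in LXRdKO, so that WT lay between the knockouts. The fall in Ch25hKO was 0.34 ± 0.06 (adjusted p = 0.000269), the value in LXRdKO was 0.13 ± 0.06 (adjusted p = 0.104), and the knockouts differed by -0.47 ± 0.06 (adjusted p = 6.78e-06). Exons of Nans and 2 unnamed gene models on the opposite strand cover 38.0% of its exon length, and Nans was at 7.13 to 9.05 CPM with no call in any comparison. Trim26 (ENSMUSG00000024457.16, chromosome 17, 36837134 to 36859398), a ligase reported to act on IRF3, had the same order, with 85.3 and 78.0 CPM in WT, 63.8 and 64.0 CPM in Ch25hKO, and 90.3 and 96.1 CPM in LXRdKO. It fell by 0.35 ± 0.06 in Ch25hKO (adjusted p = 9.25e-05), and it was the only member called in opposite directions in the knockouts, with 0.19 ± 0.06 in LXRdKO (adjusted p = 0.0158). That rise was lost without LXRdKO replicate 2 (0.14, adjusted p = 0.193) and without WT replicate 2 (0.11, adjusted p = 0.119). The direct difference between the knockouts was -0.54 ± 0.06 (adjusted p = 5.76e-07).

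Trim21 (ENSMUSG00000030966.13, chromosome 7, 102557921 to 102565486) had 308 and 272 CPM in WT, 223 and 230.3 CPM in Ch25hKO, and 285 and 294 CPM in LXRdKO. The Ch25hKO libraries were lowest, and the LXRdKO values lay between the WT values. It fell by 0.35 ± 0.06 in Ch25hKO (adjusted p = 0.000117), with -0.00 ± 0.06 in LXRdKO (adjusted p = 0.979) and -0.35 ± 0.06 between the knockouts (adjusted p = 0.000113).

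A stretch of chromosome 7 holds 8 members, from Trim6 at 104218793 to Trim30d ending at 104507849 (GRCm38). Of these 8, 7 were lower in Ch25hKO than in WT, 1 was lower in LXRdKO (Trim34b), and 6 were lower in Ch25hKO than in LXRdKO. Of all tested genes, 19.5%, 15.5% and 19.3% were called lower in these comparisons, so that 1 of 8 in LXRdKO (12.5%) is near its background. The 7 that were lower in Ch25hKO are all on the interferon-inducible list and were already counted there. The exception in Ch25hKO was Trim6, which is not on that list. Trim6 is a ligase known for unanchored ubiquitin chains that activate IKK-epsilon. It had 8.91 and 9.37 CPM in WT, 9.59 and 8.44 CPM in Ch25hKO, and 7.38 and 8.26 CPM in LXRdKO, with -0.02 ± 0.10 in Ch25hKO (adjusted p = 0.898) and overlapping libraries.

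Trim30a (ENSMUSG00000030921.17, chromosome 7, 104409025 to 104465193) had 1319.9 and 1324 CPM in WT, 1014 and 1037 CPM in Ch25hKO, and 1263 and 1277 CPM in LXRdKO. Both Ch25hKO libraries were below the other 4, a fall of 0.37 ± 0.05 (adjusted p = 3.14e-05, 1.29-fold lower). LXRdKO differed from WT by -0.06 ± 0.05 (adjusted p = 0.442) and from Ch25hKO by 0.31 in size (adjusted p = 0.000166). Its paralog Trim30b (ENSMUSG00000052749.9, chromosome 7, 104355382 to 104369884) moved most among the members above 1 CPM that fell, with 92.4 and 99.2 CPM in WT, 53.9 and 54.8 CPM in Ch25hKO, and 85.1 and 90.1 CPM in LXRdKO. The fall in Ch25hKO was 0.82 ± 0.06 (adjusted p = 4.35e-09, 1.76-fold lower), against -0.13 ± 0.05 in LXRdKO (adjusted p = 0.0817) and -0.69 ± 0.06 between the knockouts (adjusted p = 2.39e-08). The LXRdKO value passed without WT replicate 1 (-0.18, adjusted p = 0.0101). Trim30d had 389 and 403 CPM in WT, 329 and 338 CPM in Ch25hKO, and 392 and 405 CPM in LXRdKO, with the LXRdKO and WT values interleaved. It fell by 0.25 ± 0.05 in Ch25hKO (adjusted p = 0.00105), the smallest of the 13 falls. The differences in size between the 3 paralogs were not tested. Of all 50-base words in their transcripts, 5.98% in Trim30a, 7.49% in Trim30d and 0.55% in Trim30b also occur in another gene.

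Trim12a and Trim12c are mouse relatives of TRIM5, a restriction factor for retroviral capsids. Trim12c had 79.4 and 77.7 CPM in WT, 61.7 and 64.9 CPM in Ch25hKO, and 72.1 and 73.6 CPM in LXRdKO. It fell by 0.31 ± 0.05 in Ch25hKO (adjusted p = 0.000147), with -0.11 ± 0.05 in LXRdKO (adjusted p = 0.129). The knockouts differed by -0.20 ± 0.05 (adjusted p = 0.00543), a call lost without Ch25hKO replicate 1 (-0.17, adjusted p = 0.114) and without LXRdKO replicate 2 (-0.19, adjusted p = 0.0680). Trim12a had 56.7 and 55.2 CPM in WT, 43.5 and 45.9 CPM in Ch25hKO, and 55.6 and 57.2 CPM in LXRdKO. Ch25hKO was again lowest, but here LXRdKO overlapped WT. It fell by 0.32 ± 0.06 in Ch25hKO (adjusted p = 0.000149) and differed by -0.34 ± 0.06 between the knockouts (adjusted p = 8.89e-05). Trim12c shares 33.0% of its 50-base words with other genes and Trim12a 10.4%, mostly with Trim5 and each other, so how reads were split between them is uncertain.

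Trim34a had 110.02 and 120.1 CPM in WT, 91.0 and 93.9 CPM in Ch25hKO, and 123 and 121 CPM in LXRdKO. Ch25hKO was lowest and LXRdKO highest, without overlap. The fall in Ch25hKO was 0.32 ± 0.05 (adjusted p = 0.000179), against 0.09 ± 0.05 in LXRdKO (adjusted p = 0.235), which passed without WT replicate 2 (0.14, adjusted p = 0.0418). The direct difference was -0.40 ± 0.05 (adjusted p = 1.14e-05). Its near copy Trim34b had 134 counts in all, with 0.743 and 0.875 CPM in WT, 0.415 and 0.206 CPM in Ch25hKO, and 0.501 and 0.317 CPM in LXRdKO. It was called lower in Ch25hKO at -1.37 ± 0.39 (adjusted p = 0.00872) and in LXRdKO at -0.98 ± 0.36 (adjusted p = 0.0489). The first call was lost without Ch25hKO replicate 2 (-0.96, adjusted p = 0.120), and the second without WT replicate 2 (-0.87, adjusted p = 0.109) or either LXRdKO library (adjusted p = 0.0719 and 0.312). Trim34b shares 56.8% of its 50-base words with Trim34a, and Trim34a 39.8% with Trim34b, so the values of both are uncertain. Trim69, reported to restrict some RNA viruses, had 115 counts in all, with 0.383 and 0.967 CPM in WT, 0.138 and 0.344 CPM in Ch25hKO, and 0.387 and 0.407 CPM in LXRdKO. The WT libraries differed by over 2-fold, and the change of -1.47 ± 0.49 in Ch25hKO (adjusted p = 0.0237) was lost without WT replicate 2 (-0.67, adjusted p = 0.347) and without Ch25hKO replicate 1 (-0.97, adjusted p = 0.220). In LXRdKO it had -0.76 ± 0.44 (adjusted p = 0.212), which passed without WT replicate 1 (-1.28, adjusted p = 0.0112).

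Outside the interferon-inducible list, 4 members were called higher in both knockouts: Trim36, Trim8, Trim44 and Trim65, the last with an unstable call in LXRdKO. Of all tested genes, 19.8% were called higher in Ch25hKO and 16.4% in LXRdKO, and the share called higher in both was not computed. Because both comparisons use the same WT libraries, the 4 are given as single genes. Trim36, a COS-box ligase that binds microtubules, had 25.4 and 25.8 CPM in WT, 47.4 and 44.7 CPM in Ch25hKO, and 37.8 and 37.5 CPM in LXRdKO. No libraries of different genotypes overlapped. It rose by 0.85 ± 0.06 in Ch25hKO (adjusted p = 5.24e-09, 1.80-fold) and by 0.55 ± 0.06 in LXRdKO (adjusted p = 1.37e-06, 1.47-fold), and the knockouts differed by 0.29 ± 0.06 (adjusted p = 0.000491). Of the other COS-box members, Trim46 and Trim9, both at or below 1.47 CPM in every library, passed in no comparison.

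Trim8, which binds SOCS1 and is known to promote NF-kappa-B signalling, had 32.8 and 29.8 CPM in WT, 38.7 and 38.2 CPM in Ch25hKO, and 38.9 and 39.2 CPM in LXRdKO. It rose by 0.30 ± 0.06 in Ch25hKO (adjusted p = 0.00084) and 0.32 ± 0.06 in LXRdKO (adjusted p = 0.000564), and between the knockouts it had -0.02 ± 0.06 (adjusted p = 0.796). Trim44, which has a ubiquitin-binding zinc finger in place of a RING and is reported to stabilise MAVS, had 62.1 and 63.0 CPM in WT, 75.7 and 68.4 CPM in Ch25hKO, and 76.0 and 73.8 CPM in LXRdKO. Both knockouts were above WT in every library. The rise was 0.20 ± 0.06 in Ch25hKO (adjusted p = 0.00872) and 0.26 ± 0.06 in LXRdKO (adjusted p = 0.00198), and the first call was lost without Ch25hKO replicate 1 (0.12, adjusted p = 0.245).

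Trim65, the ligase that ubiquitinates the RNA sensor MDA5, had 8.67 and 10.3 CPM in WT, 11.9 and 12.3 CPM in Ch25hKO, and 11.8 and 10.99 CPM in LXRdKO. It rose by 0.35 ± 0.09 in Ch25hKO (adjusted p = 0.00650) and 0.27 ± 0.10 in LXRdKO (adjusted p = 0.0381). The call in Ch25hKO was lost without WT replicate 1 (0.24, adjusted p = 0.0724) and without Ch25hKO replicate 2 (0.33, adjusted p = 0.0533). The call in LXRdKO was lost without any one library other than WT replicate 2 (adjusted p from 0.0562 to 0.286). It was also lost with upper-quartile scaling (adjusted p = 0.0536), DESeq2 (0.138), the filter at 5 CPM (0.0641) and only the libraries compared (0.0654). Trim47, its neighbour on chromosome 11 on the same strand, had 0.765 and 0.783 CPM in WT, 1.36 and 1.79 CPM in Ch25hKO, and 0.638 and 0.792 CPM in LXRdKO. Only the Ch25hKO libraries stood apart, at 1.02 ± 0.25 against WT (adjusted p = 0.00337, 2.03-fold higher) and 1.14 ± 0.25 against LXRdKO (adjusted p = 0.00158). This was the steepest called rise of a member in Ch25hKO, from 268 counts in all, and it was lost against WT without Ch25hKO replicate 2 (0.81, adjusted p = 0.0665). Exons of Trim65 overlap 8.23% of the exon length of Trim47.

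**Figure D4:**
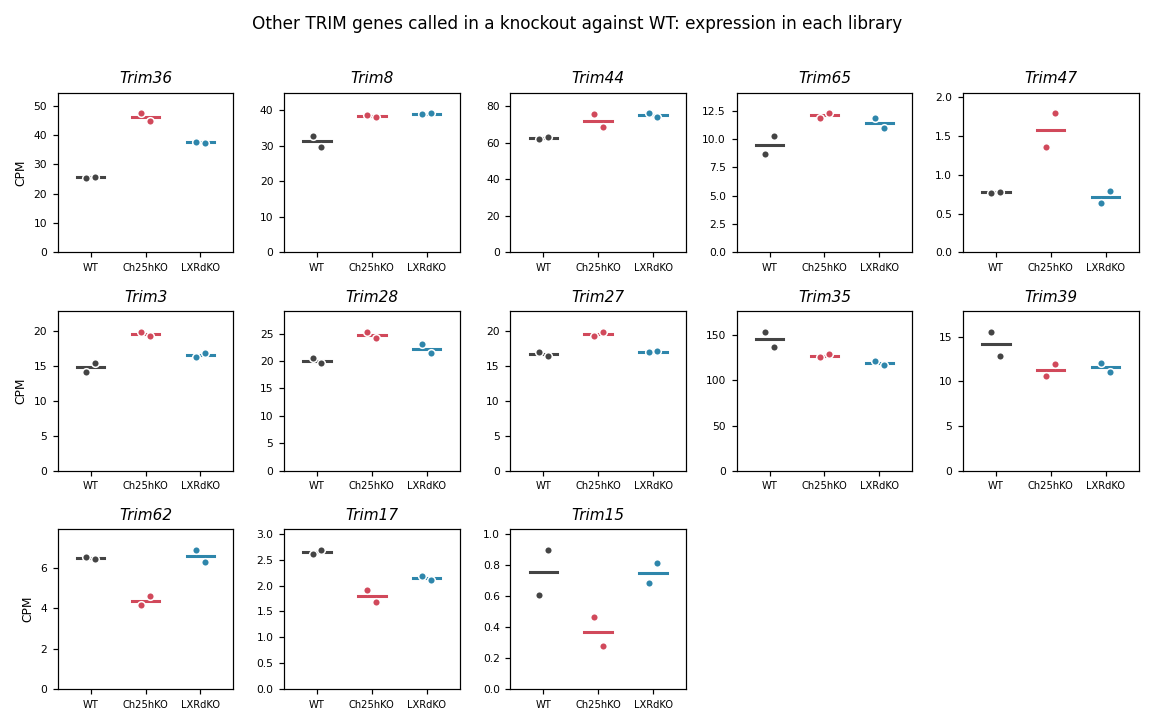
CPM (y axis, linear from 0) in each library of the 13 members outside the interferon-inducible list that were called in at least 1 knockout against WT, with 1 point per library and a bar at the group mean. Trim36, Trim8, Trim44 and Trim65 are above WT in both knockouts, and Trim35 and Trim39 are below WT in both. Trim47, Trim3, Trim28 and Trim27 are higher in Ch25hKO than in both other genotypes, and Trim62, Trim17 and Trim15 are lower there.

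Of the 3 chromatin cofactors among the members, Trim28 changed and Trim24 and Trim33 were not called in any comparison. Trim28, the corepressor that KRAB zinc finger proteins bring to chromatin, had 20.5 and 19.6 CPM in WT, 25.3 and 24.3 CPM in Ch25hKO, and 23.1 and 21.5 CPM in LXRdKO. It rose by 0.31 ± 0.07 in Ch25hKO (adjusted p = 0.00166), with 0.15 ± 0.07 in LXRdKO (adjusted p = 0.109) and 0.16 ± 0.07 between the knockouts (adjusted p = 0.0789). That last difference passed without WT replicate 1 (0.16, adjusted p = 0.0399) and without WT replicate 2 (0.15, adjusted p = 0.0424). Trim33, which acts on SMAD signalling, was at 63.2 to 67.5 CPM over the 6 libraries.

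Trim3, an NHL-repeat member that works in vesicle transport, had 14.1 and 15.4 CPM in WT, 19.9 and 19.2 CPM in Ch25hKO, and 16.2 and 16.9 CPM in LXRdKO. It rose by 0.41 ± 0.07 in Ch25hKO (adjusted p = 0.000292), and it was above LXRdKO by 0.24 ± 0.07 (adjusted p = 0.0146). The difference from LXRdKO was lost without Ch25hKO replicate 1 (adjusted p = 0.120) and without either LXRdKO library (adjusted p = 0.108 and 0.0552). The other NHL-repeat members, Trim32 and Trim2, passed in no comparison. Trim27, a ligase known to act on NOD2, had 16.9 and 16.3 CPM in WT, 19.2 and 19.8 CPM in Ch25hKO, and 16.9 and 17.1 CPM in LXRdKO. Its rise of 0.23 ± 0.07 in Ch25hKO (adjusted p = 0.0137) was lost without WT replicate 2 or either Ch25hKO library (adjusted p from 0.0644 to 0.108). Above LXRdKO, it stood at 0.20 ± 0.07 (adjusted p = 0.0315), lost without any one Ch25hKO or LXRdKO library (adjusted p from 0.0956 to 0.182).

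Outside the interferon-inducible list, 5 members were lower in Ch25hKO. Trim62, the ligase of the CARD9 adaptor of fungal recognition, had 6.55 and 6.42 CPM in WT, 4.15 and 4.59 CPM in Ch25hKO, and 6.88 and 6.29 CPM in LXRdKO. The Ch25hKO libraries lay below the other 4. It fell by 0.57 ± 0.12 in Ch25hKO (adjusted p = 0.000729, 1.48-fold lower), with 0.02 ± 0.11 in LXRdKO (adjusted p = 0.905) and -0.59 ± 0.11 between the knockouts (adjusted p = 0.000463). Trim35, reported to act on IRF7, was the highest of the 5, with 154 and 137 CPM in WT, 126 and 129 CPM in Ch25hKO, and 121 and 117 CPM in LXRdKO. It fell by 0.29 ± 0.06 in LXRdKO (adjusted p = 0.000777) and by 0.19 ± 0.06 in Ch25hKO (adjusted p = 0.0124), the latter lost without WT replicate 1 (-0.11, adjusted p = 0.105) and without Ch25hKO replicate 1 (-0.18, adjusted p = 0.121).

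Trim39, known to hold back the anaphase-promoting complex, had 15.6 and 12.8 CPM in WT, 10.6 and 11.995 CPM in Ch25hKO, and 12.1 and 11.1 CPM in LXRdKO. The WT libraries lay apart from each other but above both knockouts. The fall was 0.33 ± 0.10 in Ch25hKO (adjusted p = 0.0129) and 0.29 ± 0.10 in LXRdKO (adjusted p = 0.0303). Both calls were lost without WT replicate 1 (-0.18 and -0.15, adjusted p = 0.160 and 0.293). The first was also lost without Ch25hKO replicate 1 (adjusted p = 0.160), and the second without either LXRdKO library (adjusted p = 0.0725 and 0.224). Trim17, studied in neuronal cell death, had 2.61 and 2.69 CPM in WT, 1.91 and 1.67 CPM in Ch25hKO, and 2.19 and 2.104 CPM in LXRdKO. It fell by 0.56 ± 0.17 in Ch25hKO (adjusted p = 0.0135), a call lost without Ch25hKO replicate 2 (-0.47, adjusted p = 0.122). Exons of other genes, chiefly the histone gene Hist3h2a on the same strand, cover 24.0% of its exon length. Hist3h2a was at -0.51 ± 0.07 in Ch25hKO and 0.43 ± 0.07 in LXRdKO, both called, and the part of its reads in the Trim17 counts was not tested. Trim15, a focal adhesion protein, stood between 0.275 and 0.898 CPM in the 6 libraries, with -1.02 ± 0.36 in Ch25hKO (adjusted p = 0.0329) and -1.02 ± 0.36 against LXRdKO (adjusted p = 0.0345). The first was lost without WT replicate 2, Ch25hKO replicate 2 or LXRdKO replicate 2 (adjusted p = 0.179, 0.247 and 0.0504), and the second without Ch25hKO replicate 2 or either LXRdKO library (adjusted p from 0.0697 to 0.258).

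Between the knockouts, 4 members were called that passed in neither knockout against WT. Trim37, a MATH-domain ligase of peroxisomes and centrosomes, had 3.22 and 3.09 CPM in WT, 4.11 and 3.19 CPM in Ch25hKO, and 2.48 and 2.19 CPM in LXRdKO. Ch25hKO was above LXRdKO by 0.64 ± 0.16 (adjusted p = 0.00434), which was lost without Ch25hKO replicate 1 (0.45, adjusted p = 0.116) and without LXRdKO replicate 2 (0.55, adjusted p = 0.0646). Trim59, which is anchored in membranes, had 2.21 and 2.85 CPM in WT, 2.88 and 3.44 CPM in Ch25hKO, and 2.21 and 2.28 CPM in LXRdKO. The difference was 0.49 ± 0.17 (adjusted p = 0.0302), lost without Ch25hKO replicate 2 or either LXRdKO library (adjusted p from 0.114 to 0.248). Trim59 passed against WT without WT replicate 2 (0.50, adjusted p = 0.0385).

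Trim23, which carries an ARF GTPase domain, had 15.7 and 15.95 CPM in WT, 16.7 and 17.3 CPM in Ch25hKO, and 14.0 and 14.3 CPM in LXRdKO. The knockouts lay on either side of WT and differed by 0.26 ± 0.07 (adjusted p = 0.00795), a call lost without Ch25hKO replicate 2 (0.24, adjusted p = 0.0782) and without LXRdKO replicate 1 (0.25, adjusted p = 0.0629). Trim16, which takes part in the response to damaged lysosomes, had 3.89 and 3.41 CPM in WT, 3.02 and 2.84 CPM in Ch25hKO, and 3.78 and 4.16 CPM in LXRdKO. It was lower in Ch25hKO than in LXRdKO by 0.44 ± 0.14 (adjusted p = 0.0211), lost without either Ch25hKO library or LXRdKO replicate 2 (adjusted p from 0.0725 to 0.158). Against WT it passed in Ch25hKO without WT replicate 2 (-0.42, adjusted p = 0.0417).

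The other 14 members passed in no comparison. These were Trim33, Trim41, Trim13, Trim11, Trim6, Trim32, Trim24, Trim43c, Trim68, Trim45, Trim46, Trim2, Trim43a and Trim9. Trim13, which is anchored in the endoplasmic reticulum, came closest to the threshold in Ch25hKO among them, at 0.17 ± 0.07 (adjusted p = 0.0696), and 14.2% of its 50-base words also occur in the gene model Gm9359. Trim11 was at 10.5 to 11.7 CPM and Trim41 at 23.6 to 27.3 CPM over the 6 libraries, with overlapping Ch25hKO and WT libraries. Trim43a and Trim43c, relatives of genes active in the early embryo, were at 0.275 to 2.69 CPM and share 45.8% and 42.1% of their 50-base words with other genes. Trim43c had 1.31 CPM in WT replicate 1 and 2.69 CPM in WT replicate 2, and it passed without WT replicate 1 in both Ch25hKO (-0.64, adjusted p = 0.0142) and LXRdKO (-0.86, adjusted p = 0.00169). Trim2 passed between the knockouts without Ch25hKO replicate 1 (-1.53, adjusted p = 0.0401). For Trim9, with 60 counts in all, the standard error of the change in Ch25hKO was 0.51 (adjusted p = 0.129).

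Interferon signalling genes, which include interferon-induced effector genes, and sensors and adaptors were read from further lists. Of 30 interferon signalling genes, 22 were lower and 3 higher in Ch25hKO (median -0.36), 5 lower and 4 higher in LXRdKO (median 0.08), and 24 lower and 1 higher in Ch25hKO than in LXRdKO. The shares were 73.3% lower and 10% higher in Ch25hKO, against 19.5% and 19.8% of all tested genes, and 16.7% lower and 13.3% higher in LXRdKO, near the 15.5% and 16.4% of all tested genes. Between the knockouts, 80% were lower and 3.33% higher in Ch25hKO, against 19.3% and 18.6% of all tested genes. The 3 with the lowest p in Ch25hKO were Mx2, a dynamin-like antiviral GTPase, at -0.94 ± 0.06 (adjusted p = 3.14e-09), and the transcription factors Irf5 at -0.77 ± 0.06 (adjusted p = 8.25e-09) and Irf8 at -0.90 ± 0.07 (adjusted p = 1.22e-08). In LXRdKO they were Oasl1 at -0.46 ± 0.06 (adjusted p = 1.38e-05), Zbp1 at 0.25 ± 0.05 (adjusted p = 0.000905) and Cmpk2 at -0.32 ± 0.09 (adjusted p = 0.0148). Of 24 sensors and adaptors on which TRIM ligases act or with which they work, 9 were lower and 4 higher in Ch25hKO (median -0.03), and 1 was lower and 8 higher in LXRdKO (median 0.05). The shares were 37.5% lower and 16.7% higher in Ch25hKO, against 19.5% and 19.8% of all tested genes, the second near its background. In LXRdKO they were 4.17% lower and 33.3% higher, against 15.5% and 16.4% of all tested genes. In Ch25hKO, Rnf135, a ligase that acts on RIG-I as Trim25 does, stood at -0.69 ± 0.06 (adjusted p = 4.01e-08). The RNA sensor Ifih1 (MDA5), on which Trim65 acts, was at -0.51 ± 0.06 (adjusted p = 1.94e-06), and the related Dhx58 was at -0.36 ± 0.06 (adjusted p = 5.51e-05). In LXRdKO, the kinase gene Ikbke was at 0.34 ± 0.05 (adjusted p = 9.7e-05), the adaptor gene Traf3 at -0.31 ± 0.06 (adjusted p = 0.000446) and Myd88 at 0.29 ± 0.06 (adjusted p = 0.00210).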

How the data were processed

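For each of the 6 libraries, macrophage RNA was amplified with the Ovation system, per the labels' protocols. The authors deposited raw read counts per gene symbol, 1 column per library. The submitters' processing notes name CASAVA, STAR 2.3.0, HTSeq and the build mm10. Not given in the sources used here are the gene annotation, the way reads were counted and any use of strand, so reads of overlapping genes or near copies may sit with either gene. Amplified reads are not independent molecules.

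Genes were filtered with edgeR 4.0.16 (R 4.3.3, filterByExpr at its defaults), which kept 12923 genes, and scaled by TMM. The quasi-likelihood fit used all 6 libraries with a mean for each genotype, leaving 3 residual degrees of freedom, and was tested on simulated data first. The spread of each gene was moderated toward that shared by the tested genes, with a median of 14.41 prior degrees of freedom. Standard errors are the size of the log2 fold change divided by the square root of the F statistic. Groups and replicate numbers came from the sample titles. Positions and merged exon lengths are from GENCODE vM21 (GRCm38), in which all 44 members had a match, and words of 50 bases were compared across its transcripts. Alternatives were RLE and upper-quartile scaling, DESeq2 1.42.0, voom in limma 3.58.1, no filter, at least 5 CPM in 2 libraries, only the libraries compared, a replicate block and each library left out. The members, lists and tests were chosen with earlier results of these data known. Values per library were given for the 5 highest members per kb, for up to 6 called members in each direction per comparison above a mean of 1 CPM without overlapping libraries, and for each interferon-inducible member, and from each pathway list for the 3 genes of lowest p in each knockout. Trim6 and Trim27 are given per library outside that rule, chosen after their values were seen.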

Additional observations from a re-analysis of the deposited data

How the results depend on the processing

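Direction held for each member called, under each alternative run, and the median change of all genes stayed between -0.01 and 0.02 under each scaling. Of the 26 members called in Ch25hKO against WT, 16 were called in each alternative that tested them. For LXRdKO against WT this was 5 of 10, and between the knockouts 11 of 19. With DESeq2, members lower in LXRdKO than in WT numbered 2 in place of 5, interferon-inducible members among them 1 in place of 3, and members higher in Ch25hKO than in LXRdKO 3 in place of 7; the cause was not tested. DESeq2 also lost Trim17 (adjusted p = 0.0742), Trim15 (0.112), Trim27 (0.0902) and Trim69 (0.0664) in Ch25hKO, which left 7 members higher and 15 lower. In LXRdKO it lost Trim56 (0.0961), Trim65 (0.138), Trim34b (0.195) and Trim39 (0.0844), and between the knockouts Trim3 (0.0765), Trim15 (0.121), Trim27 (0.150), Trim16 (0.0959), Trim59 (0.128) and Trim23 (0.0510). Between the knockouts, DESeq2 also gained Trim25 as lower in Ch25hKO (0.0368), which left 11 members lower. The filter at 5 CPM in 2 libraries kept 28 members, and 7 of these were lower in LXRdKO than in WT in place of 5. With it, edgeR gained Trim30b (adjusted p = 0.0252), Trim12c (0.0336) and Trim23 (0.0480). Of the 11 interferon-inducible members kept, 4 were lower in LXRdKO.

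With 1 library left out, a group of 1 library was assumed to vary like the others. Members higher in Ch25hKO than in WT then numbered 5 to 8, and members lower 15 to 18. In LXRdKO against WT, 3 to 5 were higher and 2 to 6 lower. Of the interferon-inducible members, 12 to 13 were lower in Ch25hKO, and 1 to 4 were lower and 0 to 1 higher in LXRdKO. Between the knockouts, 3 to 8 members were higher in Ch25hKO and 9 to 13 lower.

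The labels do not say that a replicate number marks a shared animal or day, and same-numbered libraries deviated together with r = -0.31 (WT and Ch25hKO), -0.06 (WT and LXRdKO) and 0.11 (both knockouts) across 8127 genes, which are not independent. The fit with a replicate block called 8 members higher and 18 lower in Ch25hKO, 4 and 4 in LXRdKO, where Trim65 (adjusted p = 0.0501) and Trim34b (0.0576) were lost, and 7 and 12 between the knockouts. A crossed replicate block, with the WT numbers exchanged and added after seeing the data, gave 8 and 18, 5 and 6, and 7 and 13. With 2 libraries per group and 15 members under 1000 counts, a missed call does not show that a member was level.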

Other observations

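Family genes with another name showed patterns of their own. Pml, the scaffold of nuclear bodies and itself interferon-inducible, had 243 and 252 CPM in WT, 174 and 182 CPM in Ch25hKO, and 264 and 279.9 CPM in LXRdKO. It fell by 0.48 ± 0.05 in Ch25hKO (adjusted p = 1.71e-06), with 0.14 ± 0.05 in LXRdKO (adjusted p = 0.0584) and -0.61 ± 0.05 between the knockouts (adjusted p = 5.69e-08). Mefv, which encodes the inflammasome protein pyrin, had 50.6 and 51.9 CPM in WT, 50.5 and 46.4 CPM in Ch25hKO, and 64.9 and 69.1 CPM in LXRdKO. It rose by 0.39 ± 0.06 in LXRdKO (adjusted p = 6.15e-05) and had -0.08 ± 0.06 in Ch25hKO (adjusted p = 0.294). Mid1, a microtubule-bound COS-box ligase, had 5.38 and 5.13 CPM in WT, 12.1 and 12.8 CPM in Ch25hKO, and 68.5 and 76.0 CPM in LXRdKO. It rose by 1.24 ± 0.09 in Ch25hKO (adjusted p = 8.5e-09) and by 3.78 ± 0.08 in LXRdKO (adjusted p = 3.66e-16), and this last change was larger than that of any of the 44 members in either knockout. Exons on the opposite strand cover 17.9% of its exon length, so its values are uncertain. Mid2 had 4 counts in all.

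Trim28, which rose in Ch25hKO, has a list of partners in chromatin. Of 15 tested partners, 6 were lower and 3 higher in Ch25hKO, and 4 were lower and none higher in LXRdKO. The shares in Ch25hKO were 40% lower and 20% higher, against 19.5% and 19.8% of all tested genes. In LXRdKO, 26.7% were lower and none higher, against 15.5% and 16.4% of all tested genes. Between the knockouts, 5 partners were lower and 4 higher in Ch25hKO (33.3% and 26.7%, against 19.3% and 18.6% of all tested genes). In Ch25hKO, the lowest p belonged to the histone deacetylase gene Hdac1 at -0.63 ± 0.07 (adjusted p = 1.5e-06), the DNA methyltransferase gene Dnmt1 at -0.43 ± 0.06 (adjusted p = 7.72e-06) and the histone chaperone gene Daxx at -0.61 ± 0.08 (adjusted p = 1.65e-05). In LXRdKO they were Chd3 at -0.50 ± 0.07 (adjusted p = 1.92e-05), Atrx at -0.28 ± 0.05 (adjusted p = 0.000401) and Dnmt1 at -0.26 ± 0.05 (adjusted p = 0.00137).

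Trim28 and Trim41 had the same counts in both Ch25hKO libraries, 1099 and 1058, and different counts in the other 4 libraries.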
